A study of Mus musculus with 6 samples.

Results

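The genes described here are 36 lysosome and autophagy genes of the mouse, taken by their symbols from a table of 21978 entries. All 36 were in the table, and all 36 were among the 16498 genes that passed the expression filter. By role they comprised 17 lysosomal hydrolases and lumenal proteins, 6 proteins of the lysosomal membrane, 3 transcription factors of the MiT/TFE family and 10 autophagy factors. Their transcripts were counted after poly(A) selection in 6 sequenced libraries from mouse embryonic stem cells with different states of DGCR8, a protein that works with the nuclease Drosha to cut precursor miRNAs out of primary transcripts. KO cells had the genotype DGCR8 -/- and were not transfected (libraries 1 and 3, both titled with clone 261). E518K cells (clones 8 and 15) had received a transposon vector for Flag-tagged DGCR8 with the E518K substitution, together with the SB100X transposase vector. The wt cells (clones 12 and 16) had received the matching vector for wild-type DGCR8 and the same transposase. Genotype labels read E518K/E518K and wt/wt for these cells, and the sources used here do not say whether the KO line was their parent. All 3 groups were grown without feeders in serum, LIF, 3 µM CHIR99021 and 1 µM PD0325901, and all received 300 ng/mL doxycycline for 48 h. Each library of E518K and wt stands for 1 clone, and the 2 KO libraries carry 1 clone number, so p-values reflect how far these few libraries spread, and in KO that spread may be technical.

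Lysosomes are acidic organelles in which hydrolases break down proteins, glycans and lipids delivered by endocytosis and autophagy. Their membrane proteins protect the limiting membrane and move lipids, ions and enzymes across it or to it. In autophagy the kinase Ulk1 and the Beclin 1 lipid kinase complex start an autophagosome, the Atg conjugation machinery couples LC3 and GABARAP proteins to its membrane, and receptors such as p62 link cargo to them. TFEB, TFE3 and MITF bind E-box sequences known as CLEAR elements in the promoters of many of these genes and activate them when nutrients are short. In mouse embryonic stem cells TFE3 is also known as a regulator of exit from the naive state.

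The Dgcr8 transcript was the check of the labels. It stood at 40.0 and 37.1 CPM (counts scaled to library size) in KO 1 and 3, at 821 and 420.2 CPM in E518K 8 and 15, and at 196 and 992 CPM in wt 12 and 16. The KO libraries were lowest, while the wt clones differed from each other by more than either differed from an E518K clone. Library totals lay between 73642784 and 75121971 counts. Replicates differed least in KO, with a biological coefficient of variation of 2.6%, against 9.19% in E518K and 20.6% in wt. The 10 embryonic stem cell markers summed to 5735 and 5642 CPM in KO, 6819.9 and 6794 CPM in E518K, and 7490.2 and 6458 CPM in wt, so that KO was lowest and E518K lay within the wt range. Of the 10, 8 fell and 1 rose in KO against wt, while 2 fell and 2 rose in E518K against wt. The 8 fibroblast markers summed to between 3.33 and 6.58 CPM, with Dcn and Lum at 0 in at least 1 library. The 8 macrophage and blood markers summed to between 289 and 315 CPM, of which Laptm5 alone, itself a lysosomal membrane protein, gave between 275 and 299.7 CPM, and Ptprc was at 0 in at least 1 library. Primitive endoderm markers summed to 22.9 and 23.8 CPM in KO, 23.0 and 24.2 CPM in E518K, and 65.2 and 36.7 CPM in wt, and most of this was Lama1. The 8 trophectoderm markers summed to 83.7 and 89.5 CPM in KO, 72.4 and 64.3 CPM in E518K, and 87.2 and 77.1 CPM in wt. Elf5 was at 0 in at least 1 library. Of the 6 tested, 1 rose and 3 fell in KO and likewise in E518K against wt, and 2 rose and 2 fell in E518K against KO. The stem cell sum thus moved with KO, the primitive endoderm sum with wt and the trophectoderm sum with E518K. Their part in the results below was not tested. In bulk RNA, fewer cells of a kind and less RNA per cell cannot be told apart.

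Sequences were examined for what could bear on the members apart from their levels. RefSeq windows of 250 bases before to 50 bases after a start (GRCm38.p6) were held for 31 of the 36 genes. The E-box core CACGTG, which reads the same on both strands, occurred in a window of 10 of these 31 genes (32.3%), against 1280 of 11657 tested genes with a window (11%). The 10 were Atg5, Atg7, Ctsa, Ctsd, Ctsl, Gaa, Gla, Glb1, Lamp1 and Mcoln1. The longer palindrome TCACGTGA, which contains the core, was held by Ctsa, Ctsd, Gla and Mcoln1 (12.9%, against 1.84% of all windows). The full CLEAR motif, which extends this palindrome by a base at each end, was also searched. It was found in 0 of the 31 genes, against 81 of 11657 (0.695%). The windows of Lamp1, with the most cores of any member, and of Mcoln1, with a TCACGTGA, are printed with these letters in capitals. Lamp1 lies on the + strand at chr8:13158911-13159210 and Mcoln1 on the + strand at chr8:3500269-3500568.
Lamp1: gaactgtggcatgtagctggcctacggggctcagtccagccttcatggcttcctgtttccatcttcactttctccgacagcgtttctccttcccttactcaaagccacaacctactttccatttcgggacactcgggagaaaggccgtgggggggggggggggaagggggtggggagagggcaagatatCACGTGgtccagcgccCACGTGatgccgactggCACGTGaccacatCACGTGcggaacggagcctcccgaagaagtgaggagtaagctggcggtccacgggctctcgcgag
Mcoln1: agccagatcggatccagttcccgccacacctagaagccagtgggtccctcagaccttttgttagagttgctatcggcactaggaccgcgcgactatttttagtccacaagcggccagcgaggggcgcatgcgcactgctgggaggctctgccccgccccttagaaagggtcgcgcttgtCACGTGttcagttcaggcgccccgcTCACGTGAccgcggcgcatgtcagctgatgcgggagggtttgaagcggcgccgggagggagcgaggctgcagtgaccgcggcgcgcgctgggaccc
The 4 cores of Lamp1 began 61, 45, 28 and 15 bases before the start, and the 2 of Mcoln1 began 71 and 45 bases before it. A match of letters is a description and not a binding site.

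The miR-290 seed family is shown because it is the main miRNA family of mouse embryonic stem cells and depends on DGCR8 for its processing. The mature sequences, from RefSeq, share the seed in capitals (bases 2 to 8).
mmu-miR-291a-3p: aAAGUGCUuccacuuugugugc
mmu-miR-294-3p: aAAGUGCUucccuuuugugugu
mmu-miR-295-3p: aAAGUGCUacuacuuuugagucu
The matching site AGCACTT on the transcript strand was found in the longest GENCODE M21 3′ UTR of 9 of the 36 members (25%), against 16.7% of 14948 tested genes with a UTR. The members were Ctsb, Ctsa, Lamp2, Gla, Gusb, Neu1, Ulk1, Atg7 and Tpp1. The median UTR was 1237 bases long for the members and 1120 for all genes. Sites for the miR-17 seed (GCACTTT, which overlaps AGCACTT where both occur together) were in 6 members (16.7%, against 13.8%), and sites for let-7 (CTACCTC) in 4 (11.1%, against 10.2%). The sites of the 2 members with a match that changed most, in opposite directions, are printed with the match in capitals.
Lamp2 site: tgactgctacAGCACTTactaatttgg
Neu1 site: cgtcaccaagAGCACTTttttccagta

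A gene is said to rise or fall here when its edgeR quasi-likelihood test, adjusted by Benjamini-Hochberg over all 16498 genes, gave p under 0.05. A change is given as log2 fold change ± standard error, with 2 libraries per group. The error was derived from the F statistic of 1 fit of all 6 libraries. It thus draws on the spread of all groups and is not the spread of the groups compared. In KO against wt, 14 members rose, 10 fell and 12 were not called, so 66.7% were called against 57.2% of all genes (27.4% higher and 29.7% lower). In E518K against wt, 5 rose, 11 fell and 20 were not called, or 44.4% against 23.7% of all genes (11.3% higher and 12.5% lower). In E518K against KO, 8 rose, 14 fell and 14 were not called, or 61.1% against 41.8% of all genes (22% higher and 19.8% lower). The shares of all genes were not matched to the members by level. The lowest count of any member was 553, for Neu1 in KO 3, while the filter used a minimum count of 10. Whether level bore on the called shares was not tested. The first comparison and the second share the wt libraries, so values of each are given side by side. Changes of the members were not larger than those of genes in general: the median absolute log2 change was 0.38 for members and 0.52 for all genes in KO against wt, 0.26 and 0.28 in E518K against wt, and 0.36 and 0.40 in E518K against KO. Groups were fully apart, with no library of one inside the range of the other, for 31 of the 36 in KO against wt (81.7% of all genes), 21 in E518K against wt (62%) and 33 in E518K against KO (80.5%). The median signed change of the members was 0.17, -0.07 and -0.20 in these comparisons, beside -0.02, -0.02 and -0.02 for all genes. The counts of E518K against wt moved when 1 library was left out: without E518K 15, 1 member rose and 2 fell, beside 388 and 256 of all genes, and without E518K 8, 3 rose and 4 fell, beside 991 and 659.

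The genes with a sequence match were read against the same shares of all genes. Of the 10 with an E-box core, 4 rose (Atg5, Ctsd, Gaa and Lamp1) and 4 fell (Ctsl, Gla, Glb1 and Mcoln1) in KO against wt, beside 27.4% higher and 29.7% lower over all genes. In E518K against wt 1 rose (Atg5) and 3 fell (Ctsl, Glb1 and Mcoln1), beside 11.3% and 12.5%. In E518K against KO 1 of them rose (Ctsl) and 4 fell (Ctsa, Ctsd, Gaa and Lamp1), beside 22% and 19.8%. Of the 9 with an AGCACTT, 4 rose (Lamp2, Gusb, Ulk1 and Tpp1) and 2 fell (Gla and Neu1) in KO against wt, which is 6 called of 9 beside 57.2%. In E518K against wt 1 of the 9 rose (Lamp2) and 2 fell (Ctsb and Neu1), beside 11.3% and 12.5%. In E518K against KO 1 rose (Neu1) and 6 fell (Ctsb, Ctsa, Lamp2, Gusb, Ulk1 and Tpp1), beside 22% and 19.8%. All 36 members together had 8 rises and 14 falls in that last comparison. With so few genes these counts are a description, and whether either sequence had a part in the levels was not tested.

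**Figure D1:**
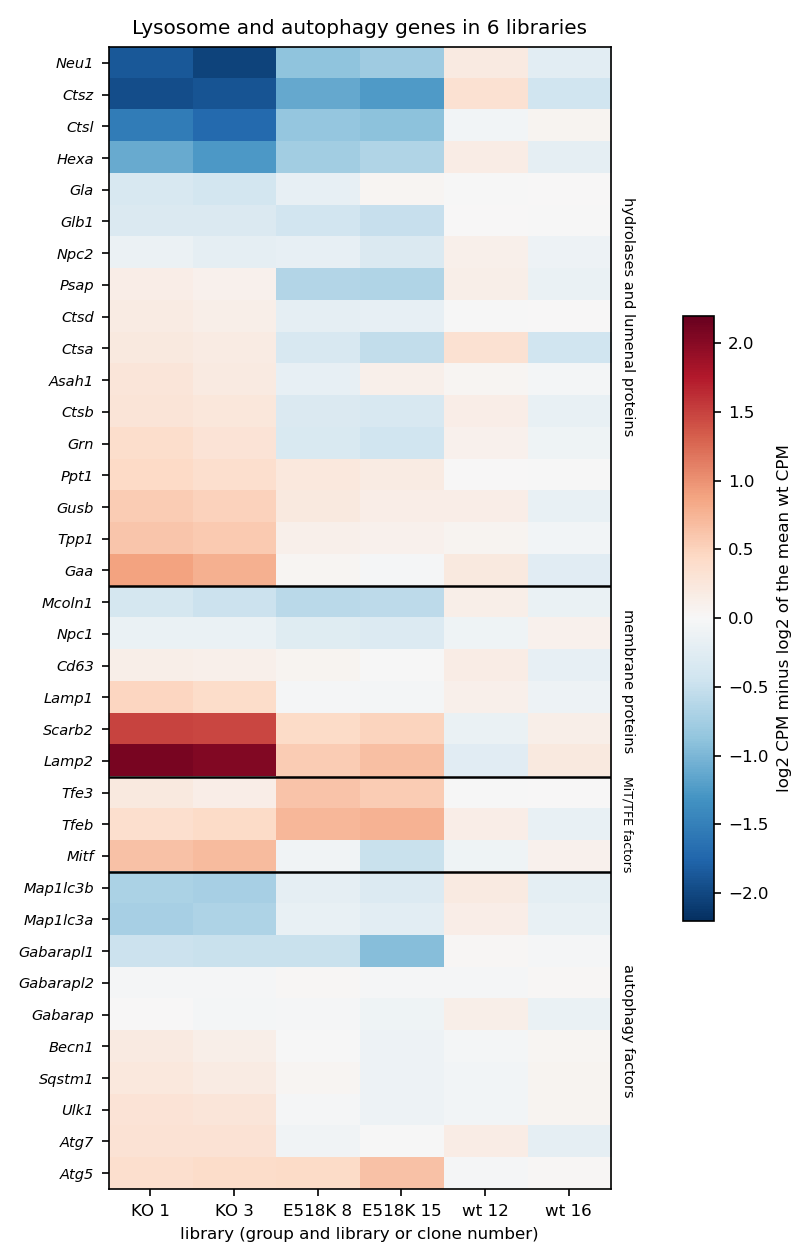
Level of the 36 genes (rows, by role) in each of the 6 libraries (columns), as log2 CPM minus log2 of the mean wt CPM, red above and blue below wt. The strongest colours are in the KO columns, blue for Neu1, Ctsz, Ctsl and Hexa and red for Lamp2 and Scarb2, with E518K of the same colour but paler.

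Among the 17 hydrolases and lumenal proteins, 6 rose and 6 fell in KO against wt, beside 27.4% higher and 29.7% lower over all genes. In E518K against wt, 0 rose in the edgeR fit and 8 fell (Ctsl, Ctsz, Hexa, Neu1, Glb1, Psap, Grn and Ctsb), beside 11.3% and 12.5%. The median change of the group was 0.16 in KO and -0.33 in E518K. The summed level of the 17 was 2822 and 2707 CPM in KO, 2140.3 and 2076 CPM in E518K, and 2956 and 2482 CPM in wt, so both E518K libraries were below the other 4. The split of 0 against 8 was 0 against 6 with the E518K and wt libraries alone and 0 against 10 with upper-quartile factors. With DESeq2 it was 1 against 9, where Ppt1 was called, the 1 hydrolase with a positive change and an unadjusted p under 0.05. It was 0 against 3 without E518K 8, 0 against 2 without E518K 15, 4 against 9 without wt 12 and 1 against 12 without wt 16.

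A set of 4 enzymes had the same order of groups, lowest in KO, intermediate in E518K and highest in wt, with every one of the 3 comparisons called. Neu1, the sialidase that trims sialic acid from glycoconjugates (chr17:34931253-34935953, + strand), had 8.02 and 7.17 CPM in KO, 15.9 and 17.1 CPM in E518K, and 33.6 and 25.1 CPM in wt. Ctsz, the carboxypeptidase cathepsin Z (chr2:174427493-174439039, - strand), had 14.1 and 14.6 CPM in KO, 24.8 and 22.7 CPM in E518K, and 68.3 and 40.2 CPM in wt. For both genes no 2 groups overlapped, and wt 12 was the highest library. Ctsl, the cysteine protease cathepsin L (chr13:64359337-64370890, - strand), had 67.0 and 59.7 CPM in KO, 108 and 104 CPM in E518K, and 187 and 203 CPM in wt. Hexa, the alpha subunit of the hexosaminidase that degrades GM2 ganglioside (chr9:59539540-59565109, + strand), had 62.8 and 56.0 CPM in KO, 79.2 and 85.0 CPM in E518K, and 152 and 118 CPM in wt. The 3 groups were again apart for both.

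Against wt, Neu1 fell by 1.95 ± 0.16 in KO (adjusted p 0.000109) and by 0.83 ± 0.15 in E518K (0.0105). Ctsz fell by 1.92 ± 0.23 in KO (0.000475) and by 1.19 ± 0.22 in E518K (0.0111), where its change was -0.75 without wt 12 and -1.52 without wt 16. Ctsl fell by 1.62 ± 0.08 in KO (2.51e-05) and by 0.88 ± 0.08 in E518K (0.00147), the smallest error of the 4. Hexa fell by 1.18 ± 0.12 in KO (0.000296) and by 0.72 ± 0.12 in E518K (0.00894). The same genes rose in E518K against KO by 1.12 ± 0.16, 0.73 ± 0.22, 0.74 ± 0.08 and 0.47 ± 0.12, in the order Neu1, Ctsz, Ctsl and Hexa. The KO calls of the 4 held without any single library, but in E518K against wt those of Neu1, Ctsz and Hexa did not hold without E518K 15 (adjusted p 0.0871, 0.119 and 0.0783) or without E518K 8 (0.0798, 0.0737 and 0.0737). For Ctsl that call remained in all alternatives. The E518K-against-KO calls of Ctsz and Hexa were lost without any 1 of the 4 libraries compared, with an adjusted p of up to 0.175 and 0.135, and also with limma on log2(TPM + 1) over all libraries (0.0922 and 0.0673). Hexa and Ctsz overlap Tmem202 and Nelfcd at their ends, by 308 and 10 bases.

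A second set of hydrolases and lumenal proteins was called lower in E518K than in both other groups, with the highest mean in KO. Psap, the precursor of the saposins that present lipids to their hydrolases (chr10:60277627-60302597, + strand), had 391 and 377 CPM in KO, 227 and 225 CPM in E518K, and 389.7 and 319 CPM in wt. Grn, the precursor of granulins (chr11:102430315-102437048, + strand), had 336 and 317 CPM in KO, 204 and 189.7 CPM in E518K, and 273 and 239 CPM in wt. Ctsb, the cysteine protease cathepsin B (chr14:63122462-63145923, + strand), had 249.5 and 243 CPM in KO, 165 and 161 CPM in E518K, and 227 and 184 CPM in wt. In all 3 genes the E518K libraries were the lowest 2 of the 6, and for Psap the KO and wt libraries overlapped.

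Against wt in E518K, Psap fell by 0.65 ± 0.09 (adjusted p 0.00532), Grn by 0.38 ± 0.08 (0.0184) and Ctsb by 0.33 ± 0.10 (0.0476). In KO against wt, Grn rose by 0.35 ± 0.08 (0.00888), the one member called in opposite directions in KO and E518K. Psap and Ctsb had changes of 0.12 ± 0.09 (0.322) and 0.26 ± 0.10 (0.0521) there, which were not called. All 3 fell in E518K against KO, by 0.76 ± 0.09 for Psap, 0.73 ± 0.08 for Grn and 0.59 ± 0.10 for Ctsb, and these calls held in every alternative run. Without E518K 15 the calls against wt ended for all 3 (Psap 0.0704, Grn 0.151, Ctsb 0.245), and without E518K 8, KO 1 or KO 3 those of Grn (0.066, 0.0506 and 0.0505) and Ctsb (0.166, 0.103 and 0.103) ended, as they did with the E518K and wt libraries alone (0.051 and 0.103). The change of Ctsb was -0.17 without wt 12. The rise of Grn in KO ended without KO 1 (0.0795) and with the KO libraries summed (0.0522).

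Gaa, Tpp1 and Gusb were highest in KO. Gaa, the acid alpha-glucosidase that degrades glycogen (chr11:119267887-119285454, + strand), had 148 and 138 CPM in KO, 82.7 and 79.1 CPM in E518K, and 92.7 and 68.0 CPM in wt. Tpp1, a tripeptidyl peptidase, had 166 and 161 CPM in KO, 118 and 116 CPM in E518K, and 113 and 103 CPM in wt. Gusb, the beta-glucuronidase, had 42.0 and 40.3 CPM in KO, 32.9 and 31.4 CPM in E518K, and 31.4 and 25.5 CPM in wt. The KO libraries were above the other 4 for all 3 genes. In KO against wt, Gaa rose by 0.83 ± 0.14 (adjusted p 0.00183), Tpp1 by 0.59 ± 0.07 (0.000389) and Gusb by 0.53 ± 0.11 (0.00519). In E518K against wt their changes were 0.01 ± 0.13 (0.964), 0.11 ± 0.07 (0.277) and 0.18 ± 0.11 (0.278). They fell in E518K against KO by 0.82 ± 0.14, 0.49 ± 0.07 and 0.36 ± 0.11, and that of Gusb was lost without any 1 of the E518K or KO libraries (adjusted p of 0.121 to 0.197).

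Ctsa, the carboxypeptidase cathepsin A that holds Neu1 in its active complex, had 382 and 372 CPM in KO, 258 and 227 CPM in E518K, and 416 and 244 CPM in wt. The wt clones held the highest and the second lowest of the 6 values, and neither change against wt was called (0.19 ± 0.21 in KO and -0.45 ± 0.22 in E518K). In E518K against KO it fell by 0.64 ± 0.22 (adjusted p 0.0497), a call lost without any 1 of these 4 libraries (0.131 to 0.259) and with DESeq2 over all of them (0.0914). Ctsa overlaps Pltp and Neurl2 over 25.7% of its span, and Pltp, with 348 and 172 CPM in wt 12 and 16, also differed between the wt clones.

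The other 6 hydrolases and lumenal proteins changed by less than 0.5 on the log2 scale. Glb1, the acid beta-galactosidase, fell by 0.46 ± 0.06 in E518K (adjusted p 0.00385) and by 0.32 ± 0.06 in KO (0.00358), and the KO call ended without KO 3 (0.0506). Ppt1, which removes palmitate from proteins, rose by 0.41 ± 0.07 in KO (0.00205). Gla, the alpha-galactosidase A, fell by 0.37 ± 0.11 in KO (0.0191), a call lost without KO 1 (0.0937) or KO 3 (0.141) and with limma on log2(TPM + 1) (0.0607). Ctsd, the aspartic protease cathepsin D, rose by 0.16 ± 0.06 in KO (0.0433) and fell by 0.34 ± 0.06 in E518K against KO (0.00298). The KO call ended without any 1 of the KO or E518K libraries (0.0676 to 0.318) and with upper-quartile factors (0.167), and the E518K-against-KO call without KO 1 (0.059). Asah1, the acid ceramidase, and Npc2, the lumenal cholesterol carrier, were not called in any of the 3 comparisons.

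**Figure D2:**
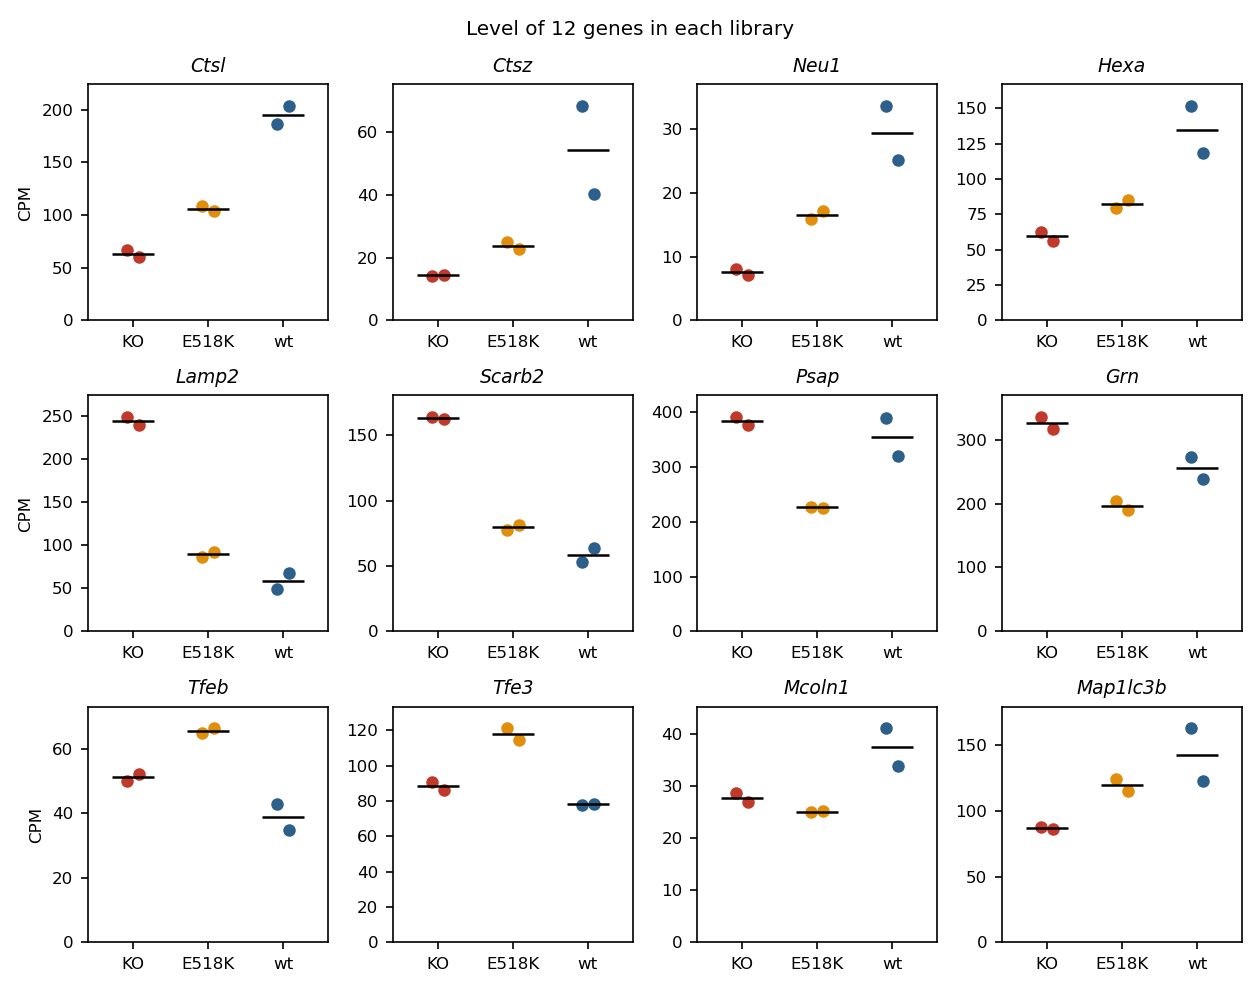
Level in CPM (vertical axis, from 0) of 12 genes in the libraries of KO, E518K and wt; each point is 1 library and the line is the mean of the 2. Ctsl, Ctsz, Neu1 and Hexa climb and Lamp2 and Scarb2 descend across KO, E518K and wt, while Psap and Grn are lowest and Tfeb and Tfe3 highest in E518K.

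Among the 6 membrane proteins were the largest increases of all 36 genes in KO against wt, those of Lamp2 and Scarb2. Lamp2, a major glycoprotein of the lysosomal membrane needed for fusion with autophagosomes and for chaperone-mediated autophagy (chrX:38401357-38456454, - strand), had 249 and 240.3 CPM in KO, 86.6 and 92.7 CPM in E518K, and 49.6 and 67.7 CPM in wt. Scarb2, also called LIMP-2, which carries glucocerebrosidase to the lysosome (chr5:92441314-92506833, - strand), had 164 and 162 CPM in KO, 77.7 and 81.3 CPM in E518K, and 52.7 and 63.6 CPM in wt. For both, KO was highest, wt lowest and E518K between, with no overlap. Lamp2 rose by 2.06 ± 0.14 in KO (adjusted p 6.06e-05) and by 0.61 ± 0.13 in E518K (0.0194). Scarb2 rose by 1.49 ± 0.10 in KO (5.22e-05) and by 0.45 ± 0.09 in E518K (0.0163). Lamp2 fell by 1.45 ± 0.14 (0.000416) and Scarb2 by 1.03 ± 0.09 (0.000391) in E518K against KO. The calls of KO against wt and of E518K against KO held in every alternative run. Those of E518K against wt did not hold without E518K 15 (0.135 for Lamp2 and 0.113 for Scarb2) or without E518K 8 (0.0807 and 0.0688). They did not hold either with all 6 libraries under limma on log2(TPM + 1) (0.104 and 0.116), on log2(TPM + 0.1) (0.0924 and 0.105) or without a filter (0.145 and 0.156). The E518K change of Lamp2 was 0.41 without wt 12.

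Lamp1, the closest relative of Lamp2, had the highest CPM per kilobase of exon of the members. It was 215 in KO, 156 in E518K and 159 in wt, where Lamp2 had 25.6, 9.39 and 6.14. The counts hold intron reads too, so this value is not exon abundance alone. Its levels were 588 and 564 CPM in KO, 419 and 415 CPM in E518K, and 458 and 394 CPM in wt. It rose by 0.44 ± 0.08 in KO (adjusted p 0.00293) and had a change of -0.03 ± 0.08 in E518K (0.797), where the groups overlapped. Lamp1 shares 20.5% of its span with Grtp1, which had 455 and 439 CPM in KO, 331 and 328 CPM in E518K, and 356 and 309.5 CPM in wt, so the reads of these 2 genes cannot be told apart there. Mcoln1, the calcium channel TRPML1, had 28.6 and 27.0 CPM in KO, 24.9 and 25.2 CPM in E518K, and 41.1 and 33.8 CPM in wt. It fell by 0.43 ± 0.11 in KO (0.012) and by 0.58 ± 0.11 in E518K (0.0115), with wt above the other 4 libraries. These calls ended without KO 1 (0.0558) or KO 3 (0.0962) for KO, and without E518K 8 (0.0753) or E518K 15 (0.0981) for E518K, and the KO change was -0.28 without wt 12. Npc1, the cholesterol transporter of the membrane, fell by 0.29 ± 0.08 in E518K against wt (0.0412), a call lost without any 1 of the E518K or KO libraries (0.115 to 0.204) and with limma on log2(TPM + 1) (0.0955). Cd63, a tetraspanin of late endosomes, was not called in any of the 3 comparisons. In E518K against KO, 3 of the 6 membrane proteins fell and 0 rose, with edgeR or DESeq2, and 0 rose also at an unadjusted p under 0.05. Over all genes edgeR called 19.8% lower and 22% higher. All 6 were lower in both E518K libraries than in both KO libraries. No overlap, counted in both directions together, was seen for 80.5% of all genes there, and the share below alone was not computed.

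**Figure D3:**
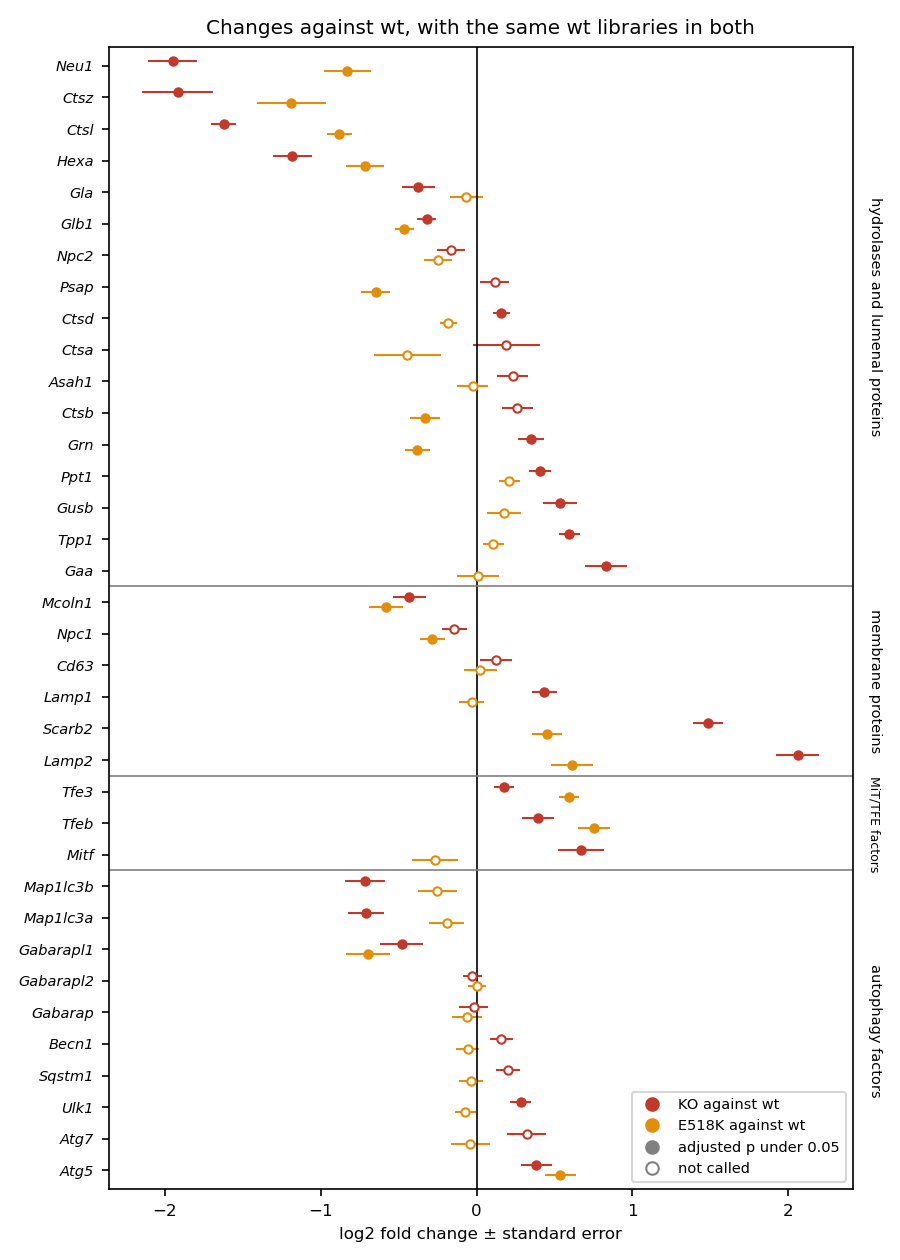
Log2 fold change against wt (horizontal axis) with its standard error for each of the 36 genes, KO in red above E518K in orange, filled where adjusted p was under 0.05; both use the same wt libraries. Grn is the one gene with filled points on both sides of 0, and Tfeb and Tfe3 are the MiT/TFE genes whose E518K point lies further from 0 than the KO point.

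All 3 MiT/TFE factors rose in KO against wt, beside 27.4% of all genes. With upper-quartile factors or without a filter, 2 of the 3 were called. Tfeb and Tfe3 were higher still in E518K and rose there against wt, beside 11.3% of all genes. Tfeb (chr17:47737030-47792419, + strand) had 50.0 and 52.3 CPM in KO, 64.8 and 66.4 CPM in E518K, and 43.0 and 34.8 CPM in wt. Tfe3 (chrX:7762560-7775202, + strand) had 90.6 and 86.2 CPM in KO, 121 and 115 CPM in E518K, and 77.6 and 78.6 CPM in wt. Both E518K libraries were above the other 4 for each gene. Tfeb rose by 0.75 ± 0.11 in E518K (adjusted p 0.00462) and by 0.39 ± 0.10 in KO (0.015), and by 0.36 ± 0.10 in E518K against KO (0.0289). Tfe3 rose by 0.59 ± 0.07 in E518K (0.00233) and by 0.42 ± 0.07 in E518K against KO (0.0024), and both calls held in every alternative run. Its change of 0.18 ± 0.07 in KO against wt lay at the threshold (adjusted p 0.04997) and ended without any 1 of the KO or E518K libraries (0.0642 to 0.328), with upper-quartile factors (0.169) or without a filter (0.0835). For Tfeb, the E518K call ended without E518K 15 (0.0571), the KO call without KO 1 (0.0602) or KO 3 (0.0958), and the E518K-against-KO call without any 1 of these 4 libraries (0.109 to 0.168) or with limma on log2(TPM + 1) (0.095). The KO change of Tfeb was 0.24 without wt 16.

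Mitf, the third factor and best known from melanocytes (chr6:97807052-98021349, + strand), had 28.3 and 29.6 CPM in KO, 17.3 and 12.9 CPM in E518K, and 17.0 and 19.3 CPM in wt. It rose by 0.67 ± 0.15 in KO (adjusted p 0.00666) and fell by 0.94 ± 0.15 in E518K against KO (0.0025), and its change in E518K against wt was -0.27 ± 0.15 (0.224), with overlapping libraries. Per kilobase of exon Mitf was the lowest of the 3, at 4.67 CPM in KO, 2.44 in E518K and 2.94 in wt, against 9.54, 12.7 and 8.44 for Tfe3. Intron reads are counted in these values too, and the spans differ, with 214298 bases for Mitf and 12643 for Tfe3.

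Among the 10 autophagy factors, 2 rose and 3 fell in KO, 1 rose and 1 fell in E518K against wt, and 2 rose and 2 fell in E518K against KO. These are 50%, 20% and 40% of the 10, beside 57.2%, 23.7% and 41.8% of all genes. The genes that fell against wt were of the LC3 and GABARAP family, whose products are coupled to the autophagosome membrane. Map1lc3b had 87.6 and 86.1 CPM in KO, 124 and 115 CPM in E518K, and 163 and 122 CPM in wt. Map1lc3a had 19.9 and 20.6 CPM in KO, 29.6 and 28.3 CPM in E518K, and 36.4 and 29.7 CPM in wt. KO was lowest and wt 12 highest for both. Map1lc3b fell by 0.71 ± 0.13 (adjusted p 0.00268) and Map1lc3a by 0.71 ± 0.11 (0.00165) in KO, calls that held in every alternative run. In E518K against wt they changed by -0.25 ± 0.13 (0.187) and -0.19 ± 0.11 (0.251), not called. Map1lc3b rose by 0.46 ± 0.13 and Map1lc3a by 0.52 ± 0.11 in E518K against KO. The rise of Map1lc3b was lost without any 1 of these 4 libraries (0.0737 to 0.142) and with limma on log2(TPM + 1) (0.0536), and that of Map1lc3a without KO 1, KO 3 or E518K 8 (0.061 to 0.0793).

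Gabarapl1 had 22.1 and 21.9 CPM in KO, 21.7 and 16.1 CPM in E518K, and 31.1 and 30.2 CPM in wt. It fell by 0.48 ± 0.14 in KO (adjusted p 0.0209) and by 0.70 ± 0.14 in E518K (0.0143), and wt was above the other 4 libraries. The KO call ended without KO 1 (0.0944) or KO 3 (0.103), or with limma and no filter (0.0574). The E518K change was -0.49 without E518K 15, the lowest library, and was no longer called (0.0636). Gabarap and Gabarapl2 were not called in any of the 3 comparisons, with levels of 62.7 to 75.3 CPM and 135 to 141 CPM over the 6 libraries. Members of this family have close copies in the genome, and the sources used here do not say how reads with several matches were counted.

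Atg5, which forms the conjugate that couples LC3 to lipid, had 28.1 and 29.0 CPM in KO, 29.3 and 34.2 CPM in E518K, and 21.5 and 22.3 CPM in wt. It rose by 0.38 ± 0.10 in KO (adjusted p 0.0133) and by 0.54 ± 0.10 in E518K (0.0109), with the wt libraries lowest. These calls ended without KO 1 (0.0721) or KO 3 (0.1) and without E518K 15 (0.0725), and both with limma on log2(TPM + 1) (0.0526 and 0.0782). Ulk1, the kinase that starts autophagy, rose by 0.28 ± 0.07 in KO (0.00933) and fell by 0.36 ± 0.07 in E518K against KO (0.0053). Its KO call ended without KO 1 (0.0827) or KO 3 (0.0629), and the other without KO 1 (0.0615) or E518K 15 (0.0513). Sqstm1, the cargo receptor p62, fell by 0.24 ± 0.08 in E518K against KO (0.0384), a call lost without KO 1 (0.24), KO 3 (0.135) or E518K 15 (0.24), where the change was -0.14, and with upper-quartile factors (0.0637). Atg7, the activating enzyme of the conjugation, and Becn1, the scaffold of the lipid kinase complex, were not called in any comparison. Becn1 shares 63.5% of its span with Cntd1, so its value holds reads of both.

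Over the 36 genes, the mean of E518K lay between those of KO and wt for 14 (38.9%, against 54.7% of all genes), below both for 18 (50%, against 24%) and above both for 4 (11.1%, against 21.3%). For 6 of the 14 all comparisons were called (Ctsl, Ctsz, Hexa, Neu1, Lamp2 and Scarb2), or 16.7% of the 36 against 7.04% of all genes. E518K was called lower than both other groups for 3 genes (Psap, Grn and Ctsb; 8.33%, against 2.58%) and higher than both for 2 (Tfeb and Tfe3; 5.56%, against 2.6%). A further 11 genes were called in KO but not in E518K against wt (30.6%, against 38.6%), and 7 were called in no comparison (19.4%, against 33.9%). Of these 7 in the edgeR fit (Npc2, Asah1, Cd63, Gabarap, Gabarapl2, Atg7 and Becn1), 4 had an unadjusted p under 0.05 in at least 1 comparison, and DESeq2 called 3 (Atg7, Becn1 and Asah1).

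Beyond the members, 6 lists of other lysosome and autophagy genes with 131 entries were examined, of which 130 were tested. In KO against wt 39 rose and 41 fell (61.5%), in E518K against wt 13 rose and 25 fell (29.2%), and in E518K against KO 24 rose and 36 fell (46.2%), beside 57.2%, 23.7% and 41.8% of all genes. Among 30 other lysosomal enzymes, 8 rose and 8 fell in KO, and 3 rose and 11 fell in E518K against wt. The called shares were 53.3% and 46.7%, beside 57.2% and 23.7% of all genes. Gm2a, the activator that presents GM2 ganglioside to hexosaminidase, had 8.42 and 7.62 CPM in KO, 21.8 and 21.7 CPM in E518K, and 64.4 and 51.6 CPM in wt. It fell by 2.85 ± 0.13 in KO (adjusted p 1.89e-05) and by 1.41 ± 0.12 in E518K (0.00127), and its groups had the order seen for Hexa. Arsb, the sulfatase of dermatan sulfate, had 21.0 and 19.1 CPM in KO, 2.87 and 2.65 CPM in E518K, and 2.19 and 2.00 CPM in wt, and rose by 3.25 ± 0.15 in KO (1.83e-05). Galc, the galactosylceramidase, rose by 1.59 ± 0.09 in KO (3.06e-05). In E518K against wt, Ctsc, the dipeptidyl peptidase cathepsin C, fell by 1.57 ± 0.17 (0.00224) and Manba, the beta-mannosidase, rose by 0.65 ± 0.06 (0.00131).

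Of 18 subunits of the V-ATPase, the proton pump that acidifies the lumen, 4 rose and 7 fell in KO, 1 rose and 4 fell in E518K against wt, and 4 rose and 1 fell in E518K against KO. The called shares were 61.1%, 27.8% and 27.8%, beside 57.2%, 23.7% and 41.8% of all genes. Atp6v1g1 fell by 1.18 ± 0.16 in KO (adjusted p 0.000863) and by 0.75 ± 0.16 in E518K (0.0172), the second of which was lost without E518K 8 (0.0867) or E518K 15 (0.149). Of 22 other membrane and sorting proteins, 7 rose and 5 fell in KO, 2 rose and 4 fell in E518K against wt, and 1 rose and 9 fell in E518K against KO. Here 54.5%, 27.3% and 45.5% were called, beside the same shares of all genes. Igf2r, the receptor that sorts enzymes with mannose 6-phosphate, had 86.6 and 86.2 CPM in KO, 50.3 and 43.7 CPM in E518K, and 116 and 98.0 CPM in wt. It fell by 1.19 ± 0.10 in E518K against wt (0.00131) and by 0.88 ± 0.10 in E518K against KO (0.000864). Ostm1, the beta subunit of the chloride transporter ClC-7, rose by 1.05 ± 0.09 in KO (0.000162), and Tpcn1, an endolysosomal cation channel, by 1.13 ± 0.15 (0.00068).

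Of 17 genes of mTORC1 signalling at the lysosome, 3 rose and 10 fell in KO, 2 rose and 3 fell in E518K against wt, and 7 rose and 2 fell in E518K against KO. The called shares were 76.5%, 29.4% and 52.9%, beside 57.2%, 23.7% and 41.8% of all genes. Rragd, a Rag GTPase that recruits mTORC1, was among those that rose in KO, with 217 and 221 CPM in KO, 149 and 124 CPM in E518K, and 68.3 and 93.9 CPM in wt. It rose by 1.43 ± 0.15 in KO (adjusted p 0.000302) and by 0.75 ± 0.15 in E518K (0.0141), the second of which was lost without E518K 8 (0.0945) or E518K 15 (0.0642) and with limma on log2(TPM + 1) (0.0703). The Ragulator subunits Lamtor4, Lamtor5 and Lamtor1, which anchor the Rag proteins, rose in E518K against KO by 0.87 ± 0.12, 0.72 ± 0.13 and 0.52 ± 0.10.

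Of 33 other autophagy factors, 13 rose and 7 fell in KO, 4 rose and 1 fell in E518K against wt, and 6 rose and 12 fell in E518K against KO. The called shares were 60.6%, 15.2% and 54.5%, beside 57.2%, 23.7% and 41.8% of all genes. Tax1bp1, a cargo receptor, rose by 1.25 ± 0.09 in KO (adjusted p 8.26e-05) and by 0.60 ± 0.09 in E518K (0.00583), the second of which was lost without E518K 15 (0.0514) and with limma on log2(TPM + 1) (0.0517). Plekhm1, an adaptor for fusion with lysosomes, rose by 1.18 ± 0.08 in KO (5.54e-05). Wipi1, which binds the lipid of early autophagosomes, was the one gene of this list that fell in E518K against wt, by 1.19 ± 0.13 (0.00225). Among 10 receptors of mitophagy and ER-phagy, 4 rose and 4 fell in KO (80%, against 57.2% of all genes). Bnip3, a mitophagy receptor, had 14.6 and 13.3 CPM in KO, 51.3 and 53.6 CPM in E518K, and 137 and 97.6 CPM in wt. It fell by 3.08 ± 0.16 in KO (2.83e-05) and by 1.16 ± 0.15 in E518K (0.00379), and the E518K call ended without E518K 15 (0.0571).

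**Figure D4:**
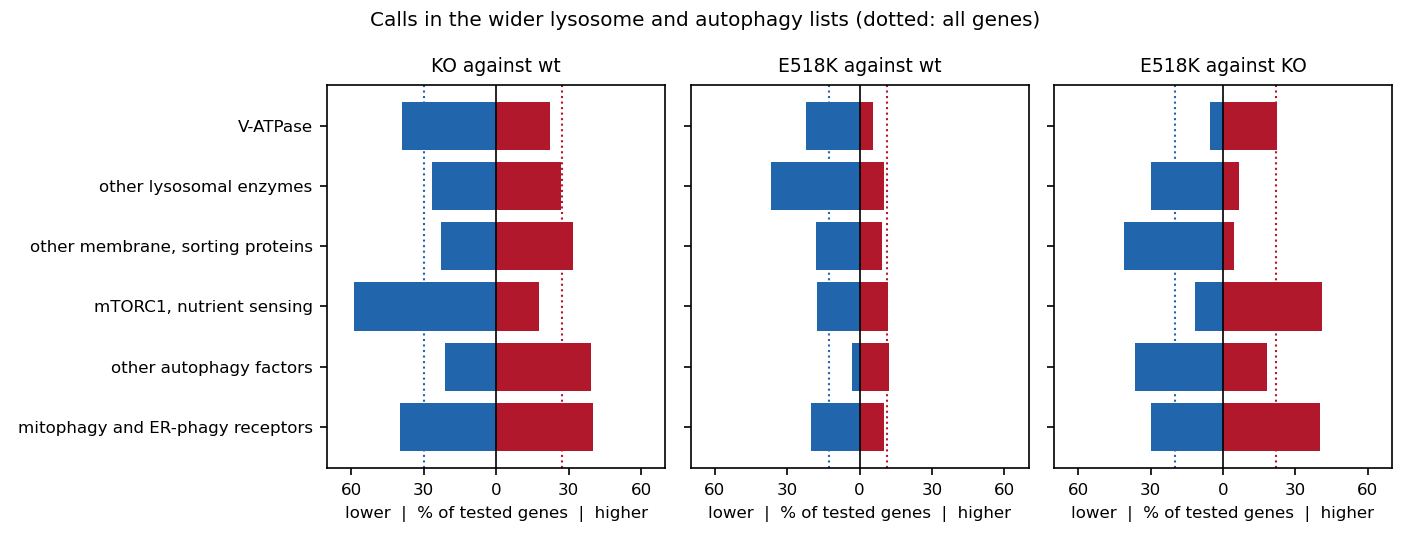
Percent of tested genes called higher (red, to the right) and lower (blue, to the left) in each of the 6 wider lists, for KO against wt, E518K against wt and E518K against KO; dotted lines are the percent over all 16498 genes. Other lysosomal enzymes reach furthest to the left in E518K against wt, with 11 of 30 lower.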

How the data were processed

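Poly(A)-selected, hexamer-primed RNA was sequenced as 100 bp pairs, per the labels' protocols. The submitters' processing notes name STAR, bedtools and build GRCm38.p6, without versions, roles or settings. The authors deposited raw whole-number counts per gene symbol and the same counts as TPM, scaled by 1 length per gene. The implied length was within 5% of the genomic span for 98.5% of 14840 genes, and of the exonic length for 3.76%. Of 264 gene pairs nested on opposite strands, 98.9% had an outer count no smaller than the inner one. Counts thus behaved as reads over whole spans, introns included, regardless of strand, and overlapping genes share reads (11 of the 36 overlap another gene).

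The deposited counts were tested with edgeR 4.0.16 (R 4.3.3; TMM factors, filterByExpr with its minimum count of 10, robust quasi-likelihood F test, group as the only term). All 6 libraries entered 1 fit with 3 residual degrees of freedom, so each comparison draws on the spread of all groups. Adjusted p follows Benjamini-Hochberg over 16498 genes, at 0.05. CPM uses TMM library sizes, and totals per library give the depth in the report. The procedure was tested on simulated data with the same spread in every group and changes in KO only. That simulation cannot show how calls behave where the spread differs between groups, as it does here. Alternatives were DESeq2 1.42.0, limma 3.58.1 on log2(TPM + 1), other factors, filters and sample sets.

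Coordinates, exons and 3′ UTRs are from GENCODE M21 (GRCm38); promoters and miRNAs from RefSeq (GRCm38.p6). Members, lists and tests were chosen with earlier results of these data known. Values per library are given for members called with an absolute log2 change of at least 0.5 in some comparison, plus Lamp1, chosen after its values were seen for its overlap, and from wider lists genes among the 3 smallest p per comparison are named.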

Additional observations from a re-analysis of the deposited data

How the results depend on the processing

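No paired analysis was possible because the groups share no replicate numbers. The 24, 16 and 22 members called in KO against wt, E518K against wt and E518K against KO kept their direction in every alternative run, and 14, 3 and 12 also stayed past the threshold in all of them. The cause of the losses was not tested. Some fits had fewer libraries, and the genes tested ranged from 16021 to 21095, beside the 16498 of the edgeR fit above. Leaving out 1 library moved the members higher in KO than in wt between 8 and 19 and the lower ones between 6 and 11. For E518K against wt these ranges were 1 to 10 and 2 to 18, and for E518K against KO 3 to 9 and 9 to 19. With the KO libraries summed, 8 members were higher in KO than in wt and 3 higher in E518K than in KO. With limma on log2(TPM + 1), log2(TPM + 0.1) or without a filter, 2 members were higher in E518K than in wt under each, and 4, 5 and 4 higher in E518K than in KO. Among the 25 members that overlap no other gene, 11 were higher and 6 lower in KO than in wt. In E518K 5 were higher and 6 lower than in wt, and 5 higher and 9 lower than in KO. The called shares were 68%, 44% and 56%, beside 57.2%, 23.7% and 41.8% of all genes.

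Over all genes, E518K against wt had 1862 higher and 2055 lower calls, and 1472 and 2455 with upper-quartile factors, 807 and 2202, 889 and 2251, and 528 and 1589 under the limma settings, and 933 and 1066 with those 4 libraries alone. Without 1 library these ranged from 388 and 256 (without E518K 15) to 3360 and 3627 (without wt 16), and higher calls outnumbered lower ones without E518K 15 or E518K 8 (991 and 659). For KO against wt the lowest were 2899 and 3185 (without KO 3) and the highest 5323 and 5635 (without wt 16). KO against wt had 4526 and 4903, and 4118 and 5418 with upper-quartile factors. E518K against KO had 3636 and 3266, between 1769 and 4873 higher and 1481 and 4622 lower without 1 library, and 2550 and 3715, 2690 and 3670, and 2278 and 3304 under limma. With the KO libraries summed, the 3 comparisons had 2951 and 3212, 900 and 1009, and 1747 and 1520 calls.

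The sign turned 44 times, for 14 genes and in comparisons where they were not called. Under the limma settings in the order above, KO against wt gave 0.033, 0.034 and 0.033 for Gabarap and 0.018, 0.019 and 0.018 for Gabarapl2. E518K against wt gave -0.033 (upper quartile), -0.035, -0.036 and -0.035 for Gaa, -0.045, -0.059, -0.060 and -0.059 for Gabarapl2, and -0.020, -0.029, -0.029 and -0.029 for Cd63. E518K against KO gave -0.077, -0.078 and -0.077 for Gabarapl2. Without 1 library, KO against wt ranged over -0.15 to 0.63 for Ctsa, -0.027 to 0.27 for Psap, -0.15 to 0.12 for Gabarap and -0.038 to 0.30 for Cd63, lowest without wt 16 and highest without wt 12. E518K against wt ranged over -0.14 to 0.084 for Lamp1, -0.20 to 0.25 for Gaa, -0.17 to 0.041 for Gla, -0.12 to 0.053 for Sqstm1, -0.19 to 0.080 for Gabarap, -0.023 to 0.041 for Gabarapl2, -0.21 to 0.15 for Atg7, -0.11 to 0.0064 for Becn1, -0.13 to 0.20 for Cd63 and -0.17 to 0.11 for Asah1. E518K against KO ranged over -0.15 to 0.0046 for Npc2, -0.067 to 0.0062 for Gabarap and -0.44 to 0.0029 for Gabarapl1. The value of Gaa without wt 16 (-0.20) was called (adjusted p 0.0385).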
